A study of Mus musculus with 23 samples.

Results

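The 6 genes that encode the skeletal muscle isoforms of troponin were followed across denervated and innervated mouse muscle. Tnni1, Tnnt1 and Tnnc1 encode the slow-fibre forms of troponin I, T and C, and Tnni2, Tnnt3 and Tnnc2 encode the fast-fibre forms. They were taken by gene name from a count table of 54446 genes and by the same gene identifiers from a second table of 15624 genes. All 6 were present in both tables, and all 6 passed the filter on low counts in the first. RNA came from skeletal muscle, the muscle itself is not named in the labels, and the series title places the study with transcription factors that control proteasome genes. The first set held 3 libraries each of innervated muscle of WT mice, of WT muscle 10 d after denervation (the loss of its nerve supply) and of muscle of PAX4 KO mice 10 d after denervation. The second set held muscle 10 d after denervation throughout: 2 libraries of WT con mice, 3 of NRF1PAL KD mice, called NRF1 KD here, and 3 of NRF1PAL-PAX4 double KD mice, called double KD here. These names, like PAX4 KO, repeat the labels and do not state a measured loss of the factor. How the knockouts and knockdowns were made, in which cells, and the age of the mice are not given in the labels. Denervation is shared by every group except the innervated one, so the second set holds no innervated control.

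Troponin sits on the thin filament of the sarcomere as a complex of 3 subunits. Troponin C binds calcium, troponin I holds back the interaction of actin with myosin until calcium arrives, and troponin T ties the complex to tropomyosin. Each subunit has a slow-fibre and a fast-fibre gene in skeletal muscle, and the isoform set present is one of the classic differences between slow-twitch and fast-twitch fibres. Tnnc1 also serves the heart, whereas the heart has its own troponin I and T genes, Tnni3 and Tnnt2, of which Tnnt2 is also known from developing skeletal muscle. Nerve activity is a known regulator of these genes.

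On the GRCm38 assembly Tnni1 lay on chromosome 1 at chr1:135779434-135810989 on the plus strand, and Tnnt1 on chromosome 7 at chr7:4504570-4516382 on the minus strand. Tnni2 at chr7:142441808-142444410 and Tnnt3 at chr7:142498836-142516009, both on the plus strand, were separated by 54.42 kb with Lsp1 between them. Tnnc1 at chr14:31208312-31211729 lay inside Nisch, on the strand opposite to it, with 0 exon bases shared. Tnnc2 at chr2:164777161-164779967 on the minus strand shared 592 of its 800 exon bases, or 74.0%, with Ube2c on the opposite strand. None of the other 5 genes shared an exon base with another gene. Troponin I and T genes stood in pairs: Tnni1 had the cardiac Tnnt2 25.36 kb away with Lad1 between, and Tnnt1 had the cardiac Tnni3 1.92 kb away with no gene between.

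The largest fold changes between innervated and denervated muscle were those of the slow genes Tnni1 and Tnnt1, so the sequence just ahead of the start of the slow genes is shown. RefSeq promoter windows on GRCm38.p6 were matched for 4 of the 6 genes, Tnni1, Tnnt1, Tnnc1 and Tnnc2, and not for Tnni2 and Tnnt3. The windows run from base -250 to base -30 relative to the annotated start, 221 bases, 5′ to 3′ on the gene's strand, and capitals mark a match to a searched motif. The motifs searched, on both strands, were the E-box CAGCTG, MCAT with CATTCC, MEF3 with TCAGGTT, and those of NRF1 and MEF2, given by name.
Tnni1, chr1:135799171-135799391, plus strand: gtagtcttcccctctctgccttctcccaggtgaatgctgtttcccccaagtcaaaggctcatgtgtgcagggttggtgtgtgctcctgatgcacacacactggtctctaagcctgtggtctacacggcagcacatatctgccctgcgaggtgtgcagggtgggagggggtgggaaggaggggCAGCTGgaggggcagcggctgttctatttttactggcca
Tnnt1, chr7:4516005-4516225, minus strand: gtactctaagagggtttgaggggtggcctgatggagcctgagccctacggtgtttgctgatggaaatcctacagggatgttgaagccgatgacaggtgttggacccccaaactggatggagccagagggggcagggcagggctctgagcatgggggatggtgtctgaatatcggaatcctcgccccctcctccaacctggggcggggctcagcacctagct
Tnnc1, chr14:31208062-31208282, plus strand: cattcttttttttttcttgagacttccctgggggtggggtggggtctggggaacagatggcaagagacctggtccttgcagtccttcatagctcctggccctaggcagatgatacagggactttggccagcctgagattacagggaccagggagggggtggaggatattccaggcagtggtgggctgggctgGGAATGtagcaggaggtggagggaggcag

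The Tnni1 window belongs to the first of the RefSeq starts for that gene, which lies inside the longer gene span given above. It held 1 E-box, at bases -68 to -63. The Tnnc1 window held 1 MCAT match on the reverse strand, at bases -58 to -53. No letters of the searched motifs were found in the windows of Tnnt1 and Tnnc2. Of 32851 promoter windows of the same length, 11.4% held the E-box, 11.5% MCAT, 3.11% MEF3, 2.81% NRF1 and 2.61% MEF2. A match describes the letters of the window and not a bound site.

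Libraries held between 21716216 and 42821396 counts in the first set and between 23740769 and 30165765 in the second. Innervated library 2 stood apart from its group: Chrng, the fetal subunit of the acetylcholine receptor and a classic denervation gene, was at 15.9 CPM there (counts per 1000000 of the scaled library total) and at 0.197 and 0.105 CPM in the other two. Denervated WT library 1 stood apart in the macrophage marker Cd68, at 43.9 CPM against 18.3 and 18.5 CPM. No read of Pax4 was counted in any library of the first set, so the counts do not check the knockout label. Nrf1 had 488 and 444 normalised counts in WT con and 476 to 524 in NRF1 KD, a log2 difference of 0.10 ± 0.12 (SE), so the NRF1 KD label is not matched by a lower Nrf1 mRNA level. The muscle fibre markers Acta1, Ckm, Ttn, Des and Myh4 summed to 42448 to 67091 CPM in every library, and the cardiomyocyte markers Myh6, Nppa, Nppb and Ryr2 to 0.192 to 12.8 CPM. Summed CPM, here and below, use plain library totals and so are not on the scale of the fits. The labels do not say that libraries of a group came from separate animals, so a p-value here speaks only for the variation among libraries, part of which may be technical. In whole muscle, fewer fibres of a type and less RNA per fibre cannot be told apart.

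The fast genes were expressed far above the slow ones in every library, except for Tnnc2 in the first set. In the second set, levels in CPM per kilobase of exon averaged 14612 ± 2172 (SD, n = 2) for Tnnt3 in WT con muscle, 10234 ± 1294 for Tnnc2 and 5957 ± 1814 for Tnni2. The libraries of these 3 genes did not overlap on that scale. The slow genes followed at 32.3 ± 3.63 CPM per kilobase for Tnnt1, 7.61 ± 2.10 for Tnnc1 and 6.06 ± 0.160 for Tnni1. Tnnt1 stood above the other slow genes, and the ranges of Tnnc1 and Tnni1 overlapped. In innervated muscle of the first set, Tnnt3 ran from 9590 to 10849 CPM per kilobase and Tnni2 from 4425 to 4868, whereas Tnnt1 reached at most 7.59, Tnnc1 3.57 and Tnni1 3.37. Tnnt1, Tnnc1 and Tnni1 overlapped one another there.

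Tnnc2, the calcium sensor of fast fibres, did not keep its place between the sets. In the first set it had between 81 and 454 counts in a library, although its partner gene Tnni2 had between 105213 and 303650. Scaled by plain library totals, denervated WT muscle gave 5.03 CPM of Tnnc2 in the first set and 8187 CPM in the second, a ratio of 1626. The other 5 troponin genes were between 0.632 and 1.65 times as high in the second set as in the first. Ube2c, the ubiquitin-conjugating enzyme gene that overlaps Tnnc2 on the other strand, moved with it: its levels were 3.04 and 119 CPM, a ratio of 39.0. How reads from overlapping genes were assigned, and whether strand was used, is not given in the sources used here, and the part of the overlap in these values was not tested. Tnnc2 values of the first set are therefore given below as deposited, and its level is read from the second set. A ratio between sets carries no test, since the sets were normalised separately.

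**Figure D1:**
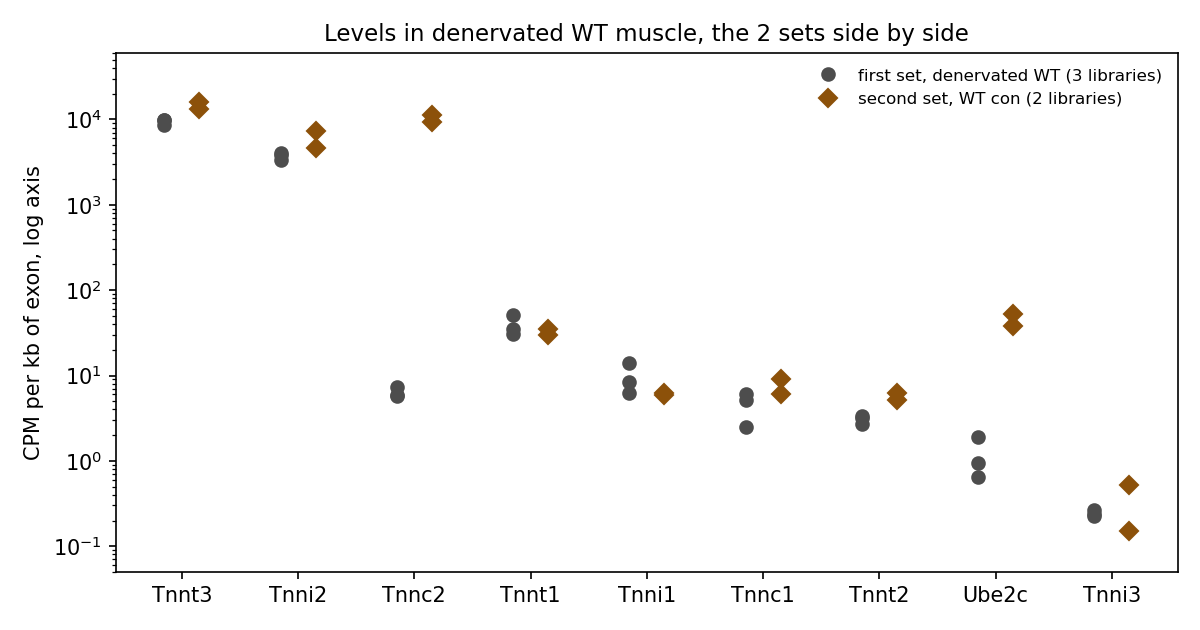
Level of each troponin gene and of Ube2c in denervated WT muscle, in CPM per kilobase of exon on a log axis, with 1 point per library (first set denervated WT, second set WT con). Tnnc2 and Ube2c are the genes whose points lie far apart between the sets, with Tnnc2 at 5.70 to 7.32 in the first set and 9319 to 11149 in the second.

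Denervation raised the slow troponins I and T and lowered the fast troponin I. Tnnt1 rose 9.46-fold and Tnni1 5.38-fold in denervated WT against innervated muscle, and Tnni2 fell 1.55-fold, with Tnnt3 lower by less than the test required. Of the 6 genes, 4 passed edgeR's quasi-likelihood test at a Benjamini-Hochberg adjusted p under 0.05, 2 higher and 2 lower, in a comparison where 32.3% of all genes tested were called. The 2 called lower were Tnni2 and Tnnc2, and the low Tnnc2 counts of this set are given only as deposited. Genes called higher made up 16.5% and genes called lower 15.8%. Scaling by plain library totals, which moved the median log2 fold change of all genes by 0.31, left 2 of the 6 called, both higher and none lower. Without innervated library 2 and denervated WT library 1, also 2 were called.

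Tnni1, the inhibitory subunit of slow fibres, was at 1.43, 14.2 and 2.06 CPM in the innervated libraries 1 to 3. In the denervated WT libraries it was at 47.0, 31.1 and 21.3 CPM. The groups did not overlap, and innervated library 2 was the closest to the denervated level. The log2 fold change was 2.43 ± 0.67 (SE), with an adjusted p of 0.0199 by edgeR. It was 4.22 without innervated library 2, with an edgeR adjusted p of 0.000175. The call was lost without denervated WT library 1 (2.09, adjusted p 0.0550), without innervated library 1 (2.00, adjusted p 0.0537) or without innervated library 3 (2.01, adjusted p 0.0638), in edgeR fits with adjusted p over all genes.

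Tnnt1, the slow tropomyosin-binding subunit, was at 2.36, 19.6 and 3.97 CPM in innervated muscle and at 70.8, 116 and 65.0 CPM in denervated WT muscle. All denervated libraries stood above all innervated ones, and innervated library 2 was again the highest of its group. The log2 fold change was 3.24 ± 0.64 (SE), adjusted p 0.00396 by edgeR. It was 4.71 without innervated library 2. Tnnt1 was the one member called under each of 15 alternatives of this comparison, with edgeR, DESeq2 or limma-voom adjusted p values of at most 0.0179.

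Tnnc1, the troponin C of slow fibres and heart, was at 2.66, 4.36 and 2.37 CPM in innervated muscle and at 5.89, 5.51 and 2.51 CPM in denervated WT muscle. Denervated library 3 lay within the innervated range, and the groups overlapped. The log2 fold change of 0.56 ± 0.37 (SE) did not pass (adjusted p 0.273, edgeR), and its 95% interval ran from -0.25 to 1.37. A test of the difference between Tnnc1 and its slow partners was not made.

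Tnni2, the fast inhibitory subunit, was at 8833, 8321 and 8080 CPM in innervated muscle and at 4676, 5859 and 5768 CPM in denervated WT muscle. The groups did not overlap, and denervated WT library 1 was the lowest. A log2 fold change of -0.63 ± 0.18 (SE) was fitted, adjusted p 0.0219 by edgeR. Its call was lost under 7 of 15 alternatives, among them plain library totals (-0.32), and the fits without denervated WT library 1 (-0.53), innervated library 1 (-0.60) or innervated library 3 (-0.66), with adjusted p values of 0.000607 to 0.0794 over the alternatives. The fit with a replicate block, given in the closing section, was another that lost the call.

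Tnnt3, the fast tropomyosin-binding subunit and the most abundant member, was at 20815, 18958 and 18517 CPM in innervated muscle and at 12561, 15962 and 14870 CPM in denervated WT muscle. Here too the groups did not overlap. The log2 fold change of -0.43 ± 0.17 (SE) missed the threshold in edgeR (adjusted p 0.0871) and passed it in DESeq2 (adjusted p 0.00720). The log2 value under plain library totals was -0.12.

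Tnnc2 counts were at 7.63, 8.55 and 15.8 CPM in innervated muscle and at 4.21, 4.78 and 5.62 CPM in denervated WT muscle. The groups did not overlap, and innervated library 3 was the highest. On the log2 scale the difference was -1.13 ± 0.32 (SE), adjusted p 0.0218 by edgeR. The authors' deposited table gave -0.996 with an adjusted p of 4.22e-11. No fit of these counts reached that value: the lowest adjusted p over alternatives by edgeR, DESeq2 or limma-voom was 0.000652. Why they differ was not tested. The call was lost under 5 of 15 alternatives. Plain library totals and the fit without both innervated library 2 and denervated WT library 1 were among them. The others left out innervated library 3 (-0.74), denervated WT library 1 (-1.04) or denervated WT library 2 (-1.12). At this level the counts hold a small part of the Tnnc2 reads seen in the second set, as shown above, so what part of the Tnnc2 reads this change covers is not known.

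**Figure D2:**
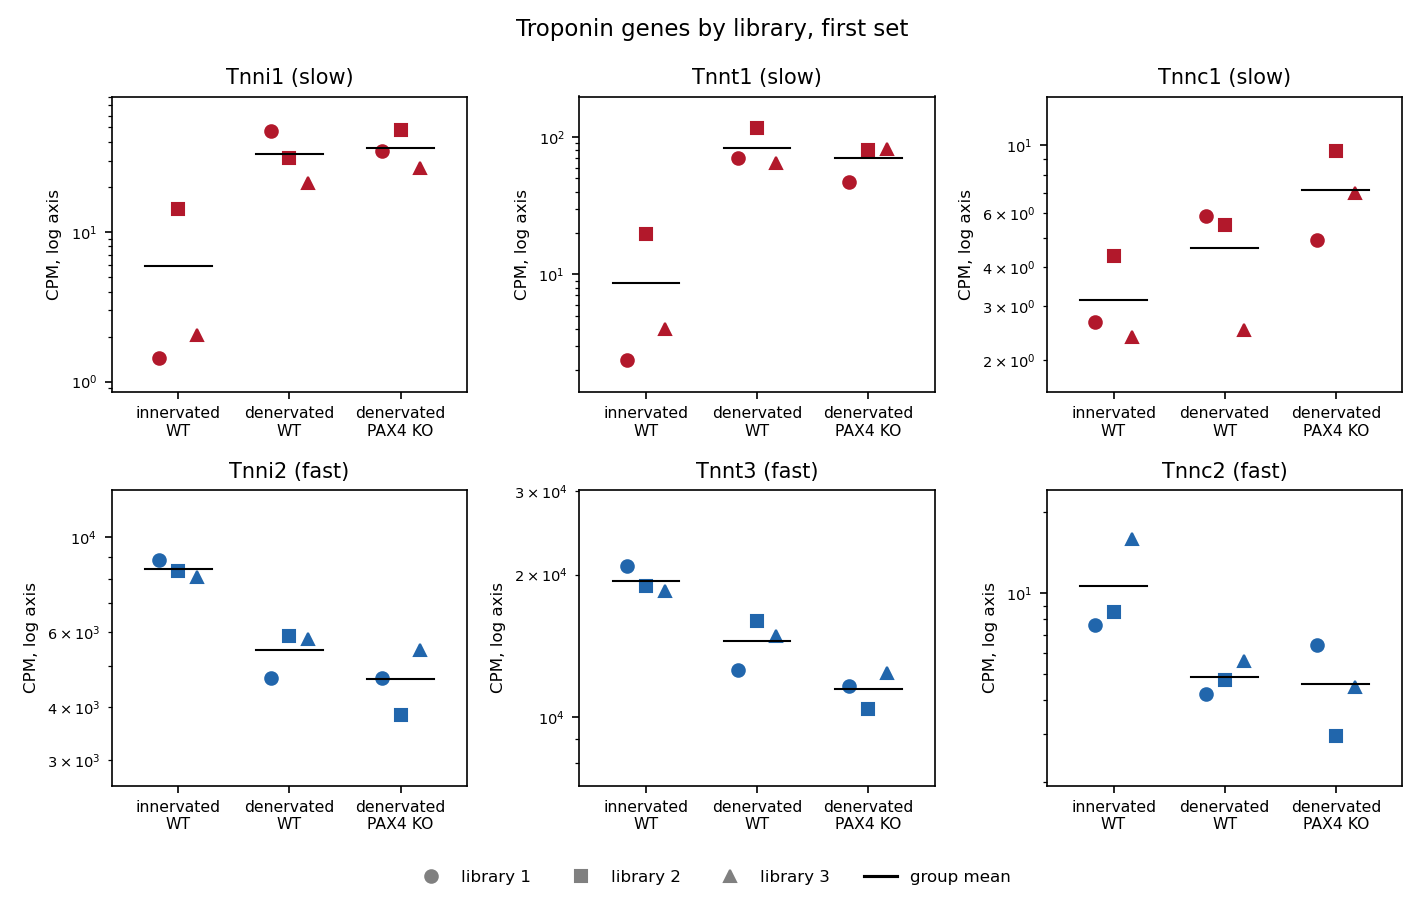
CPM of the 6 troponin genes in each library of the first set on log axes, slow genes in red and fast genes in blue, with horizontal bars for the group means. Tnni1 and Tnnt1 lie at 1.43 to 19.6 CPM in innervated muscle and at 21.3 to 116 CPM in denervated WT muscle, and innervated library 2 is the highest of its group for all 3 slow genes.

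The cardiac troponin T gene rose as well. Tnnt2 was at 2.56, 9.48 and 1.88 CPM in innervated muscle and at 22.6, 21.1 and 25.0 CPM in denervated WT muscle, with no overlap. Its log2 fold change was 2.26 ± 0.48 (SE), adjusted p 0.00573 by edgeR. Tnni3, the cardiac troponin I gene, stayed below 1 CPM in each library of this set, with a log2 fold change of 0.19 that did not pass. Tnnt2 lies 25.36 kb from Tnni1 on chromosome 1 with Lad1 between them, and the adjacent Tnnt1 and Tnni3 on chromosome 7 gave log2 fold changes of 3.24 and 0.19.

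Genes that work beside troponin were called in both directions, as were genes over all tested. Of 11 thin filament partners measured, 2 rose and 4 fell after denervation, with a median log2 fold change of -0.29 against 0.019 over all genes tested. In this comparison 16.5% of all genes tested were called higher and 15.8% lower. Lmod2, a leiomodin that lengthens thin filaments, rose by 2.17 ± 0.30, and Cfl2, the muscle cofilin that severs actin, by 0.81 ± 0.15. Actc1, the cardiac actin, fell by 2.71 and Tpm1, a tropomyosin to which troponin T binds, fell by 0.99 on the log2 scale. Adjusted p values from edgeR ran from 0.000749 to 0.00268 for these 4. With plain library totals 2 of these partners were called higher and 2 lower.

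Genes of slow and fast fibres did not follow the troponins as a block. The shares over all genes tested were again 16.5% called higher and 15.8% called lower. Of 7 slow fibre genes, 2 rose and none fell, with 5 not called and a median log2 fold change of -0.36. The 2 were Atp2a2, the slow calcium pump of the sarcoplasmic reticulum (1.28 ± 0.15), and Myoz2, a Z-disc protein of slow fibres (1.69 ± 0.39). Among those not called, Myh7 and Myl2 were low, at 0.443 to 1.37 and 0.615 to 6.52 CPM. Innervated library 2 was the highest of these libraries for both. Of 11 fast fibre genes, 7 fell and 2 rose, with a median of -1.14. Mybpc2, the fast myosin-binding protein C, fell by 3.10 on the log2 scale, and Myoz1, a Z-disc protein of fast fibres, fell by 1.79. Those that rose were Myh2, the myosin of fast oxidative 2A fibres (1.57 ± 0.33), and Actn3, the fast alpha-actinin (0.90 ± 0.25).

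Among 11 regulators of fibre type, 1 rose and 6 fell, and with plain library totals 1 rose and 1 fell. The main fit called 16.5% of all genes tested higher and 15.8% lower, which holds for the cell type markers below as well. Prox1, a homeobox factor known from slow fibres, rose by 1.13 ± 0.28 (adjusted p 0.0129, edgeR). Sox6, a repressor of slow fibre genes, fell by 0.85 (adjusted p 0.00404), and Tbx15, a factor of glycolytic fibres, fell by 0.60 (adjusted p 0.0112). Markers of other cell types shifted in the same comparison, which does not count the cells or show which cells held the mRNA. Of 7 macrophage markers 5 rose, with summed levels of 31.3 to 108 CPM in innervated and 168 to 332 CPM in denervated WT muscle. All 4 endothelial and all 4 smooth muscle markers fell, and 3 of 4 markers of satellite cells and myoblasts rose, from 30.7 to 60.7 CPM summed in innervated muscle to 214 to 468 CPM. Of 4 Schwann cell markers 2 fell, with summed levels of 56.5 to 107 CPM in innervated and 11.7 to 18.1 CPM in denervated WT muscle, and 1 of 4 fibroblast markers fell. Their part in the troponin values was not tested.

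Among denervated libraries, those labelled PAX4 KO gave no called change in a troponin gene. In PAX4 KO against WT muscle, both denervated, 0 of the 6 genes passed edgeR's test, where 0.0186% of all genes tested were called. An unadjusted p under 0.05 was found for 0 of the 6, against 12.9% of all genes tested. DESeq2 and limma-voom also called 0 of the 6, with 1 and 0 at an unadjusted p under 0.05. Tnni1 was at 34.7, 48.1 and 26.8 CPM in the KO libraries, which overlapped the WT range, with a log2 fold change of 0.14 and a 95% interval of -1.24 to 1.51. Tnnt1 was at 47.5, 80.6 and 81.7 CPM, a log2 fold change of -0.27 (-1.54 to 1.01). The intervals of both slow genes reach past a 2-fold difference in each direction, so a change of that size was not excluded by these libraries.

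Tnnc1 was at 4.90, 9.56 and 6.96 CPM in the KO libraries, and its log2 fold change of 0.62 had a 95% interval of -0.17 to 1.41. The intervals of the fast genes Tnni2 and Tnnt3 were narrower. Tnni2 was at 4674, 3826 and 5450 CPM and Tnnt3 at 11619, 10383 and 12394 CPM, with log2 fold changes of -0.22 (-0.62 to 0.17) and -0.34 (-0.72 to 0.051). Each KO library of Tnnt3 lay below each denervated WT library, and the adjusted p was 0.436 in edgeR. The authors' deposited table gave Tnnt3 a log2 fold change of -0.355 with an adjusted p of 0.177. For Tnnc2, at 6.45, 2.95 and 4.47 CPM, the log2 fold change was -0.070 (-0.78 to 0.64).

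Against innervated muscle, the PAX4 KO libraries gave calls for all 6 genes, 3 higher and 3 lower, where 40.0% of all genes tested were called, 21.8% higher and 18.2% lower. Tnnc2, among the 3 lower, rests on the low counts of this set, which are given only as deposited. This comparison uses the same innervated libraries as that of denervated WT muscle, so the values only stand side by side. The log2 fold changes were 2.57 ± 0.68 (SE) for Tnni1, 2.98 ± 0.63 for Tnnt1 and 1.18 ± 0.37 for Tnnc1, with edgeR adjusted p values of 0.0127, 0.00458 and 0.0269. The fast genes gave -0.86 ± 0.18 for Tnni2, -0.76 ± 0.17 for Tnnt3 and -1.20 ± 0.32 for Tnnc2, with adjusted p values of 0.00431, 0.00669 and 0.0138. With plain library totals 3 were called higher and 1, Tnni2, lower. Tnnc1 lost its call without KO library 2 (0.91), KO library 3 (1.19), innervated library 1 (1.07) or innervated library 3 (1.00), and Tnnc2 without innervated library 3 (-0.81).

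**Figure D3:**
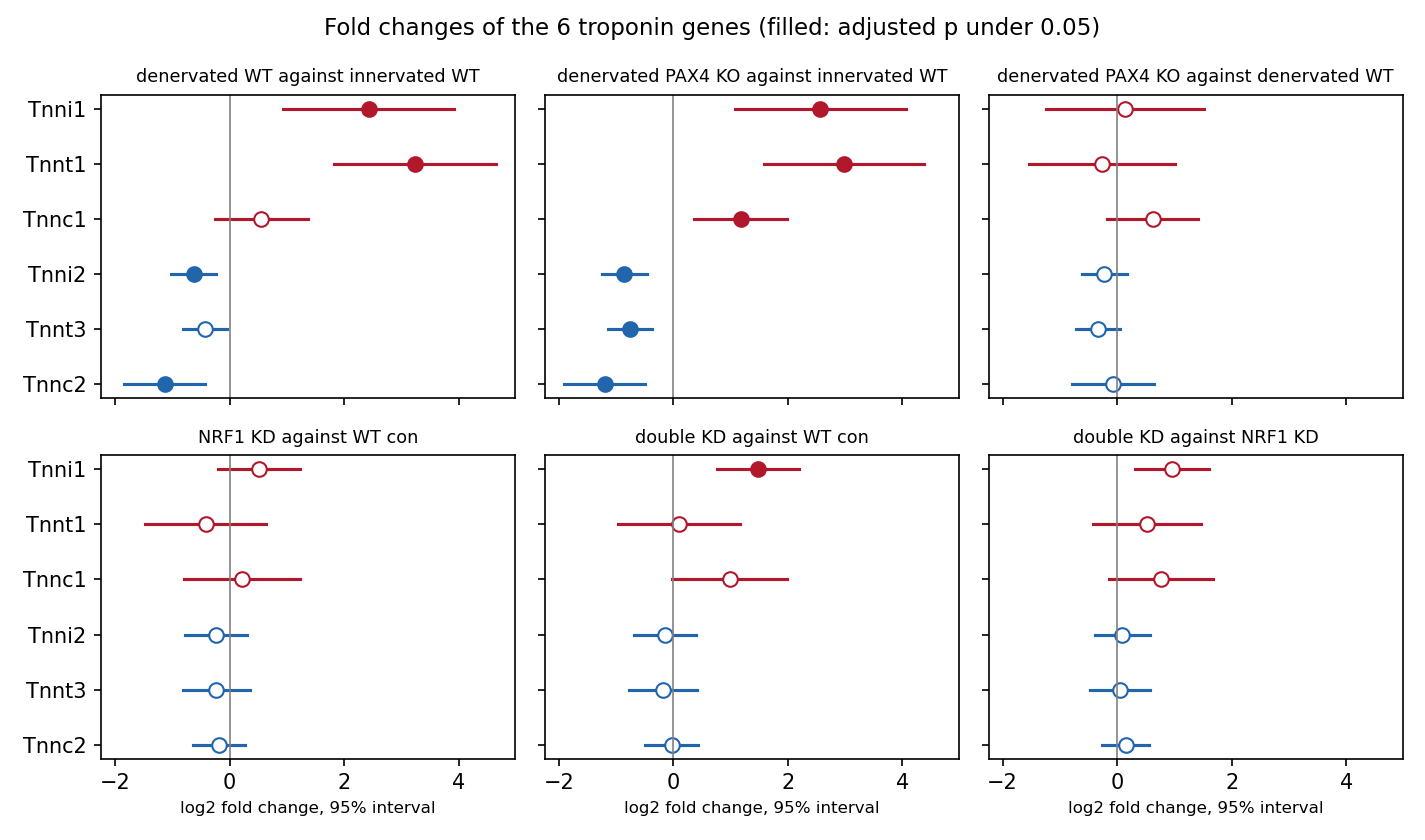
Log2 fold changes of the 6 troponin genes with 95% intervals in the 6 comparisons, slow genes in red and fast genes in blue, with filled points for an adjusted p under 0.05. Tnni1 and Tnnt1 lie at 2.43 to 3.24 in both comparisons with innervated muscle, and among the 3 comparisons of the second set the one filled point is Tnni1 in double KD against WT con.

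The partner lists showed no call between PAX4 KO and WT denervated muscle in edgeR: 0 of 11 thin filament partners, 0 of 7 slow fibre genes, 0 of 11 fast fibre genes and 0 of 11 regulators. Over all genes tested, 0.0186% were called. Unadjusted p values under 0.05 numbered 3, 1, 5 and 1 in these lists, against 12.9% of all genes tested. DESeq2 called 1 thin filament partner and 2 fast fibre genes lower, and limma-voom called none. The medians were -0.074, 0.44, -0.50 and -0.084 on the log2 scale, against 0.0063 over all genes tested. Genes with the smallest p in each list were Tmod4, which caps thin filaments (-0.53), Myl2, the slow regulatory light chain (2.26), Pvalb, the calcium buffer of fast fibres (-0.90), and Sox6 (-0.50). Myl2 was low, at 4.28, 12.8 and 2.78 CPM in the KO libraries and 0.615 to 1.85 CPM in denervated WT muscle. Macrophage markers summed to 366 to 601 CPM in the KO libraries and fibroblast markers to 2396 to 6867 CPM, against 168 to 332 and 1266 to 1875 CPM in denervated WT muscle.

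In the second set, the libraries labelled NRF1 KD gave no called change in a troponin gene. By limma on log2(normalised count + 1), 0 of the 6 genes passed an adjusted p of 0.05, where 11.3% of all genes were called, 7.58% higher and 3.72% lower. An unadjusted p under 0.05 was found for 0 of the 6, against 27.6% of all genes. EdgeR and DESeq2 on the recovered reads also called 0. Tnni1 stood at 605 and 618 normalised counts in WT con and at 992, 888 and 768 in NRF1 KD. The groups did not overlap, with a log2 fold change of 0.52 ± 0.32 (SE) and an adjusted p of 0.325. A fit of these 2 groups alone called it, with a limma adjusted p of 0.0432.

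Tnnt1 was at 2171 and 1821 normalised counts in WT con and at 1757, 1478 and 1262 in NRF1 KD, all below WT con, with a log2 fold change of -0.42 ± 0.48 (SE). Tnnc1 was at 268 and 177 in WT con and at 272, 271 and 221 in NRF1 KD, a log2 fold change of 0.22 ± 0.46. These slow genes therefore had 95% intervals that spanned 0, from -1.48 to 0.64 and from -0.79 to 1.23.

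The fast genes lay close to WT con. Tnni2 was at 306445 and 194624 normalised counts in WT con and at 219277, 223288 and 181161 in NRF1 KD. Tnnt3 was at 722808 and 575704 against 573257, 594377 and 487133, and Tnnc2 at 252199 and 207348 against 208868, 224596 and 175090. WT con library 2 was the highest for all 3, and the groups overlapped. The log2 fold changes were -0.24, -0.23 and -0.18, with 95% intervals whose lowest bound was -0.82 and highest 0.36.

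**Figure D4:**
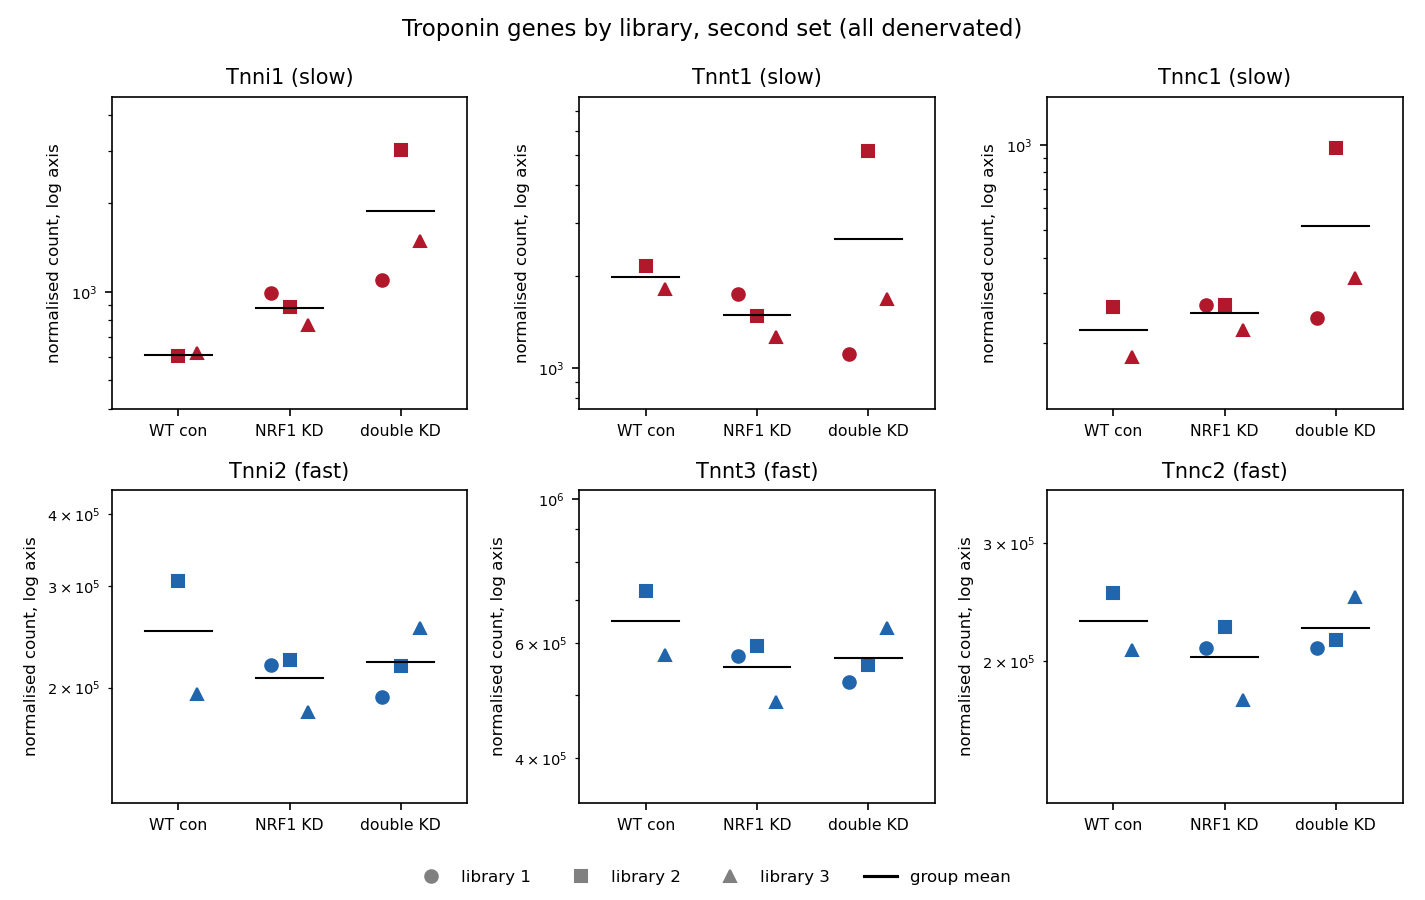
Normalised counts of the 6 troponin genes in each library of the second set on log axes, slow genes in red and fast genes in blue, with horizontal bars for the group means. Double KD library 2 is the highest point for Tnni1, Tnnt1 and Tnnc1, at 3038, 5154 and 974, and for Tnni2, Tnnt3 and Tnnc2 the groups overlap.

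In the libraries labelled double KD, 1 of the 6 genes was called against WT con, Tnni1, which rose 2.79-fold, where 4.08% of all genes were called by limma, 2.39% higher and 1.7% lower. Tnni1 was at 1096, 3038 and 1488 normalised counts in double KD. All 3 libraries exceeded the 605 and 618 of WT con, and library 2 was the highest. The log2 fold change was 1.48 ± 0.32 (SE), with a limma adjusted p of 0.0345. It was 1.06 without double KD library 2, with an adjusted p of 0.0331. The call was lost without WT con library 2 (1.46, adjusted p 0.183), WT con library 3 (1.49, adjusted p 0.0780) or double KD library 3 (1.58, adjusted p 0.0546), and in a fit of the 2 groups alone (1.48, adjusted p 0.0843), each in limma. The authors' deposited table gave a log2 fold change of 1.62 with an adjusted p of 0.0118.

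Tnnt1 was at 1109, 5154 and 1687 normalised counts in double KD, so that library 2 lay above the WT con range and the other two below it. Its log2 fold change was 0.10 ± 0.48 (SE) and turned to -0.54 without library 2. Tnnc1, at 244, 974 and 338, gave 0.98 ± 0.46 (adjusted p 0.245, limma), and 0.40 without library 2. Double KD library 2 was also high in other fibre genes: Myl2 had 3234 normalised counts there against 343 and 761 in libraries 1 and 3, and Myh2 had 98669 against 48373 and 68323. The 6 slow fibre genes measured in this set were Myh7b, Myl2, Myl3, Myoz2, Atp2a2 and Casq2. They summed to 765 to 1148 CPM in double KD, to 805 to 896 CPM in NRF1 KD and to 592 to 671 CPM in WT con. The part of this library's makeup in the troponin values was not tested, beyond the values without it.

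For the fast genes, Tnni2 was at 192764, 217929 and 254252 normalised counts in double KD, Tnnt3 at 522612, 556007 and 632672, and Tnnc2 at 209348, 214825 and 248764. Library 2 was not the highest of its group for any of them. Log2 fold changes against WT con were -0.15, -0.18 and -0.032, none called. Tnnt2 had 1375 and 1099 normalised counts in WT con and 1162, 1302 and 1356 in double KD, with a log2 fold change of 0.048.

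Set against NRF1 KD, double KD gave 0 called genes of 6 by limma, with 1 at an unadjusted p under 0.05, where 0.134% of all genes were called, 0.0768% higher and 0.0576% lower. EdgeR and DESeq2 on the recovered reads also called 0. Over all genes, 11.2% had an unadjusted p under 0.05. The 1 gene was Tnni1, at a log2 fold change of 0.96 ± 0.29 (SE) and an adjusted p of 0.235. It was called without double KD library 1 (1.28, adjusted p 0.0409, limma). The other 5 genes gave log2 fold changes between 0.049 and 0.77. The 2 comparisons of double KD share its libraries and are not independent.

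Of the partner lists, in the libraries labelled NRF1 KD, where 11.3% of all genes were called, 2 of 11 thin filament partners rose, Actc1 by 1.52 ± 0.33 and Lmod3, another leiomodin, by 0.54 ± 0.12. Casq2, the slow and cardiac calsequestrin that stores calcium, was the 1 of 6 slow fibre genes that rose (0.96 ± 0.19), Pvalb the 1 of 11 fast fibre genes that fell (adjusted p 0.00620, limma), and Vgll2, a cofactor of TEAD factors in muscle, the 1 of 11 regulators that rose (0.82 ± 0.10). In the libraries labelled double KD, where 4.08% of all genes were called, 3 of 11 thin filament partners rose, Lmod3 by 0.91 ± 0.12 and Lmod2 by 0.72 ± 0.15 among them, with Casq2 at 1.35 ± 0.19 and Vgll2 at 1.07 ± 0.10. With limma 0 of 11 fast fibre genes were called there, and DESeq2 called 3 and edgeR 1 lower. By limma 3 of the 11 had an unadjusted p under 0.05, against 21.4% of all genes. Macrophage markers rose for 6 of 6 measured in NRF1 KD, with summed levels of 288 to 558 CPM against 123 to 157 CPM in WT con, and for 1 of 6 in double KD at 208 to 362 CPM. Of 4 satellite cell and myoblast markers 2 fell in each, with summed levels of 631 to 637 CPM in WT con, 320 to 355 CPM in NRF1 KD and 272 to 354 CPM in double KD. In NRF1 KD those that fell were Myod1 (-1.12) and Myog (-1.01), whereas Pax7 (-0.50) and Myf5 (0.043) were not called. Of 4 fibroblast markers 2 rose in NRF1 KD and 1 in double KD. Their part in the troponin values was not tested.

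The ratio within a pair describes the slow part of the mRNA, and no protein was measured. The slow share, the slow gene as a percent of slow plus fast in CPM per kilobase of exon, does not depend on the scaling of a library. For troponin I it was 0.00672%, 0.0710% and 0.0106% in innervated muscle and 0.416%, 0.220% and 0.153% in denervated WT muscle. For troponin T it was 0.00815%, 0.0743% and 0.0154% in innervated muscle and 0.403%, 0.521% and 0.313% in denervated WT muscle. Every denervated library thus exceeded every innervated one in both pairs, and the share stayed below 1% throughout.

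PAX4 KO muscle gave 0.308%, 0.521% and 0.204% for troponin I and 0.293%, 0.554% and 0.472% for troponin T, which overlapped denervated WT muscle. In the second set the troponin I share was 0.0820% and 0.132% in WT con, 0.188%, 0.165% and 0.176% in NRF1 KD and 0.236%, 0.576% and 0.243% in double KD. Each group lay above the one before it with no overlap, in 2, 3 and 3 libraries. The troponin T share did not follow that order, at 0.215% and 0.227% in WT con, 0.220%, 0.178% and 0.186% in NRF1 KD and 0.152%, 0.661% and 0.191% in double KD.

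For troponin C the share was readable in the second set alone. It was 0.0815% and 0.0657% in WT con, 0.0999%, 0.0926% and 0.0971% in NRF1 KD and 0.0895%, 0.347% and 0.104% in double KD. Double KD library 2 was the highest for all 3 pairs. With or without it, the double KD libraries overlapped NRF1 KD for troponin C, since library 1 lay below and library 3 above each NRF1 KD library. In the first set the low Tnnc2 counts put the same ratio at 10.3% to 71.4%, which is not read as a share of the isoform. With the longest transcript in place of all exon bases, the median shares were 1.60 to 1.61 times as high for troponin I, 1.42 times for troponin T and 1.26 times for troponin C in the second set. These shares are given as a description, with no test.

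**Figure D5:**
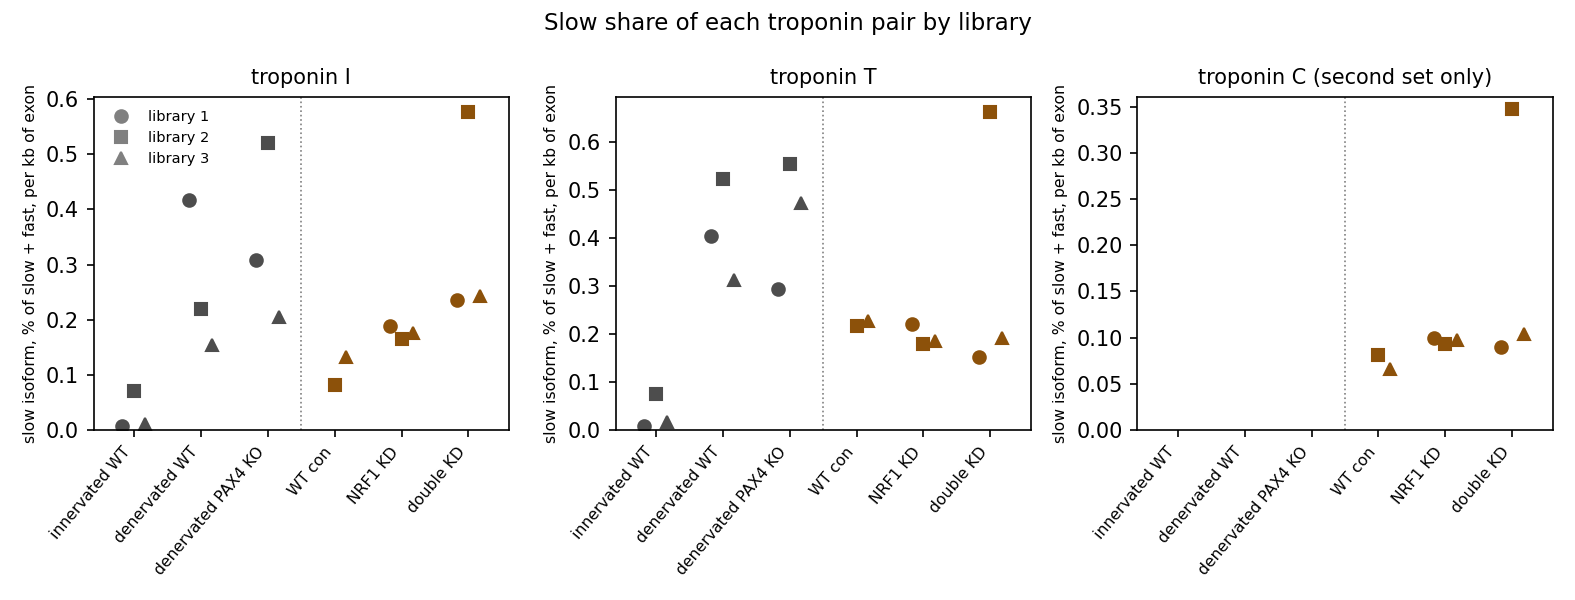
Slow isoform as a percent of slow plus fast in CPM per kilobase of exon, for troponin I, T and C in each library, with the first set left of the dotted line and the second set right of it. The troponin I and T shares lie at or below 0.0743% in innervated muscle and at or above 0.152% in denervated libraries other than WT con, whose troponin I shares are 0.0820% and 0.132%.

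The slow and the fast members were compared with one another across libraries. Over the 9 libraries of the first set, which span innervated and denervated muscle, log2 CPM of Tnni1 and Tnnt1 correlated at r = 0.96 and that of Tnni2 and Tnnt3 at r = 0.97. Tnni1 and Tnni2 ran opposite at r = -0.86. Over the 8 libraries of the second set, all denervated, Tnni2 and Tnnt3 kept r = 0.95 and Tnnc2 followed Tnnt3 at r = 0.91. Tnni1 and Tnnc1 gave r = 0.92, Tnni1 and Tnnt1 r = 0.64, and Tnni1 and Tnni2 r = -0.038. These values share the libraries' groups and scaling and are given as descriptions.

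The genes most like each member over the 9 libraries of the first set, among those with a mean of at least 8 CPM, were led by Atf3 for Tnni1 (r = 0.991), Myom3 for Tnnt1 (0.991), Il13ra1 for Tnnc1 (0.945), Bod1 for Tnni2 (0.995), Kcmf1 for Tnnt3 (0.996) and Slc25a42 for Tnnc2 (0.966). Over the 8 libraries of the second set the same pairs gave 0.774, 0.718, 0.251, 0.576, 0.839 and 0.0399. Atf3 is a stress-induced transcription factor, and Myom3 is a protein of the M-band. The next for Tnni1 were Csrp3, a muscle LIM protein (0.986 and 0.781), and Mustn1 (0.985 and 0.609). For Tnnt1 they were Nrcam (0.991 and -0.102) and Spire1 (0.989 and -0.693), for Tnnc1 Apobec1 (0.942 and 0.235) and Myl6b, a myosin light chain (0.942 and 0.768). For Tnni2 they were Cyhr1 (0.990 and 0.350) and Gpi1 (0.988 and -0.0660), for Tnnt3 Ankrd40 (0.994 and 0.473) and Parp6 (0.993 and 0.263), and for Tnnc2 Acp6 (0.961 and 0.370) and Fgd5 (0.955 and -0.656). For Nrcam, Spire1, Gpi1 and Fgd5 the sign turned in the second set, where all libraries were denervated. The Tnnc2 counts of the first set were low and are given only as deposited, so its pairs with Slc25a42, Acp6 and Fgd5 carry that limit. The libraries share their groups and their scaling, and these values carry no test.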

How the data were processed

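Per the labels' protocols, mouse muscle RNA was extracted with TRIzol and 1 ug was taken for SMARTER mRNA-Seq libraries. GRCm38 and mm10 are the builds in the submitters' processing notes. Which aligner, counter, annotation or strand setting was used is not given in the sources used here. Raw gene counts are the unit of the first table as the authors deposited it. The second table, also from the authors, has log2 values on the variance-stabilised scale of DESeq2, with a signal column, the mean of normalised counts over 8 libraries, a score column, the Wald statistic, and p-value columns of their own tests. A further deposited table has log2 fold changes and p-values of the authors' own tests on the first set, in which Tnnt1 has no value.

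The log2 values of the second set were turned back into normalised counts, whose mean differed from the deposited signal by at most 3.34e-07%, and 100% of the reads recovered from them lay within 0.05 of a whole number. Counts of the first set were tested with edgeR 4.0.16 (R 4.3.3; quasi-likelihood, TMM, filterByExpr, 3 groups in 1 fit) over 16146 genes. Normalised counts were tested with limma 3.58.1 (trend, pseudocount 1) over 15624 genes, with fold changes on the log2(value + 1) scale. Adjusted p values are Benjamini-Hochberg over all genes tested, called under 0.05. DESeq2 1.42.0, limma-voom, other scalings, filters and pseudocounts, a replicate block and each library left out were alternatives. Scripts were tested on simulated data. CPM of single genes use TMM-scaled totals unless plain totals are named. Summed CPM of markers and of slow fibre genes use plain totals. CPM per kilobase use plain totals and all exon bases of GENCODE M21. Libraries of the first set are numbered in ascending order of the numbers in their column names. The labels list 6 samples without a column, not analysed here: WT con 1, 2 innervated and 3 denervated at 14 d.

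Members and lists were chosen with earlier results of these data known. Named were all 6 members, the cardiac troponins, up to 2 called genes per list, direction and comparison by smallest adjusted p (or the 1 with the smallest p), and the 3 genes most like each member. Myl2, Myh2 and Ube2c values per library were chosen after they were seen.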

Additional observations from a re-analysis of the deposited data

How the results depend on the processing

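The count of troponin genes called in denervated WT against innervated muscle moved from 4 to 2 with plain library totals and to 2 without innervated library 2 and denervated WT library 1, an alternative chosen after seeing the data, and ran from 1 to 4 as single libraries were left out. It was 0 to 0 for PAX4 KO against denervated WT, 4 to 6 for PAX4 KO against innervated, 0 to 0 for NRF1 KD, 0 to 1 for double KD against WT con and 0 to 1 for double KD against NRF1 KD. A fit of just the groups compared called 1 gene in NRF1 KD, and called 0 in double KD against WT con. With a replicate block, 3 were called for denervation, without Tnni2 (-0.63, adjusted p 0.0608, edgeR), and 0 for double KD against WT con, where Tnni1 had 1.59 (adjusted p 0.0696, limma). The labels do not pair the samples, but the column names of innervated and denervated WT libraries carry the same numbers, 127, 139 and 143. Whether equal numbers mark the same animal is not stated. Same-numbered innervated and denervated libraries correlated at 0.258, 0.0617 and 0.332 in their deviations, each highest with its own number. The block moved calls over all genes from 5209 to 5034 for denervation, 1765 to 630 for NRF1 KD and 638 to 136 for double KD against WT con.

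Directions that turned were all of uncalled values. Tnnc2 in PAX4 KO against denervated WT was 0.083 with plain totals. With single libraries left out, log2 fold changes there ran from -0.11 to 0.48 for Tnni1, from -0.42 to 0.044 for Tnnt1 and from -0.39 to 0.16 for Tnnc2. In NRF1 KD they ran from -0.57 to 0.089 for Tnni2 and from -0.078 to 0.51 for Tnnc1. In double KD against WT con they ran from -0.48 to 0.18 for Tnni2, from -0.54 to 0.57 for Tnnt1 and from -0.17 to 0.11 for Tnnc2, and against NRF1 KD from -0.014 to 0.19 for Tnni2, from -0.12 to 0.99 for Tnnt1 and from -0.038 to 0.11 for Tnnt3. The cause was not tested. With the length of the longest transcript, median slow shares were higher throughout: troponin I came to 0.0170% (innervated), 0.353% (denervated WT), 0.493% (PAX4 KO), 0.172% (WT con), 0.282% (NRF1 KD) and 0.389% (double KD), troponin T to 0.0219%, 0.571%, 0.668%, 0.313%, 0.263% and 0.271% in the same order, and troponin C to 0.0930% (WT con), 0.123% (NRF1 KD) and 0.132% (double KD).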
